A study of Rattus norvegicus with 10 samples.

Results

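The 6 granule cell identity genes of the dentate gyrus, Prox1, Calb1, Dsp, C1ql2, Tdo2 and Trpc6, were followed in hippocampal tissue 3 months after traumatic brain injury (TBI). They were chosen by name, and the RefSeq RNA record with the highest mean count was used for each symbol. Of the 6 genes, 5 had a record among the 32041 RNA records of the table, and 4 of them (Prox1, Calb1, C1ql2 and Trpc6) were among the 22431 records with enough reads to be tested. No record in the table matched Dsp, so it was not analysed here.

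Messenger RNA was sequenced from 10 adult male Sprague-Dawley rats, each processed on its own. The 5 TBI rats received a lateral fluid percussion averaging 3.32 atm, a pressure pulse on the intact dura through an opening in the left side of the skull. The 5 sham rats had the same anaesthesia and surgery, craniectomy included, without the pulse. The tissue was a piece of the left hippocampus holding CA3 and the dentate gyrus, which the labels call dorsal hippocampus, so neither group represents rats without surgery and the model stands for injury to 1 side of the brain. No EEG was recorded in the TBI rats, so which of them had seizures is not known. P-values measure the spread between these rats.

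Granule cells are the principal neurons of the dentate gyrus. They receive input from the entorhinal cortex and send their axons, the mossy fibres, to mossy cells of the hilus and to pyramidal cells of CA3. Loss or displacement of granule cells, loss of calbindin from them and sprouting of their mossy fibres are classic features of the hippocampus in temporal lobe epilepsy. A tissue piece gives 1 value per gene for all of its cells. Fewer granule cells, less RNA per granule cell and a different mix of other cells in the piece cannot be told apart.

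The libraries held 23425817 to 31671838 reads assigned to RNA records. Ribosomal RNA records took 23.8% to 59.0% of these reads in sham rats and 12.5% to 25.5% in TBI rats, with both of the highest shares, 59.0% and 58.5%, in sham rats 4 and 5. Levels are given as CPM, read counts relative to library size, after scaling by the trimmed mean of M values (TMM), which sets libraries on a common scale through the bulk of the genes.

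No difference between TBI and sham rats was detected in any of the 4 tested granule cell genes. All 4 had a lower mean in TBI rats, with log2 changes from -0.30 to -0.19, against 52.2% of all tested records with a log2 change below 0, and the sign turned for all 4 with scaling by total counts and for C1ql2 with the ribosomal RNA share as a covariate. In edgeR's quasi-likelihood test, 0 of the 4 reached an adjusted p below 0.05, as did 0% of all records, and 0 of the 4 passed an unadjusted p of 0.05, where 7.89% of all records did. The SD of the sham rats exceeded the difference between the group means in all 4. In every one of the 4 genes the lowest rat was a sham rat, sham 1, and the second lowest was a TBI rat, TBI 5.

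Prox1 is the homeobox transcription factor that sets and maintains granule cell identity. Its record, NM_001107201.1, stood at 9.55, 36.4, 25.8, 25.7 and 41.4 CPM in sham rats 1 to 5 and at 24.2, 27.9, 28.9, 19.5 and 11.4 CPM in TBI rats 1 to 5. The groups overlapped, since sham rats held both the lowest and the highest level, 4.33-fold apart. The mean of the sham group was 27.8 ± 12.2 CPM and that of the TBI group 22.3 ± 7.16 CPM (SD, n = 5 each). The log2 change was -0.30 with a standard error of 0.400 and a 95% interval from -1.22 to 0.61 (adjusted p = 0.898, edgeR's quasi-likelihood test). As a fold, this interval runs from 0.429 to 1.53 times the sham level. The median standard error of all tested records was 0.127.

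Calb1 encodes calbindin, the calcium-binding protein that buffers calcium in mature granule cells. Its record, NM_031984.2, was measured at 11.6, 37.6, 24.4, 28.6 and 26.2 CPM in sham rats 1 to 5 and at 20.2, 25.5, 25.7, 20.2 and 15.7 CPM in TBI rats 1 to 5. Every TBI rat was below the sham median of 26.2 CPM, but sham 1 was below every TBI rat and the groups overlapped. The means were 25.7 ± 9.38 CPM in sham rats and 21.5 ± 4.20 CPM in TBI rats (SD, n = 5 each). The log2 change was -0.25 with a standard error of 0.279 and a 95% interval from -0.88 to 0.38 (adjusted p = 0.873, edgeR's quasi-likelihood test).

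C1ql2 encodes a secreted C1q-like protein that granule cells release at mossy fibre synapses, where it gathers kainate receptors on the CA3 side. The levels of its record, NM_001105949.1, were 33.4, 93.1, 124, 115 and 122 CPM in sham rats 1 to 5 and 60.3, 71.1, 130, 99.2 and 47.7 CPM in TBI rats 1 to 5. TBI 3 was the highest of all rats, 4 of the 5 TBI rats were below the sham median, and the lowest was again sham 1. The means were 97.6 ± 38.0 CPM in sham rats and 81.7 ± 33.2 CPM in TBI rats (SD, n = 5 each). The log2 change was -0.25 with a standard error of 0.404 and a 95% interval from -1.18 to 0.67 (adjusted p = 0.917, edgeR's quasi-likelihood test).

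Trpc6 encodes a cation channel of the TRPC family that opens downstream of phospholipase C and is found on granule cell dendrites. In sham rats 1 to 5 its record, NM_053559.1, stood at 8.08, 17.5, 17.2, 16.9 and 17.1 CPM, and in TBI rats 1 to 5 at 13.3, 12.0, 15.0, 17.0 and 9.66 CPM. Sham rats 2 to 5 lay within 16.9 to 17.5 CPM, and of the TBI rats TBI 4 alone reached this range. The mean was 15.3 ± 4.06 CPM in sham rats and 13.4 ± 2.80 CPM in TBI rats (SD, n = 5 each). The log2 change was -0.19 with a standard error of 0.212 and a 95% interval from -0.66 to 0.27 (adjusted p = 0.872, edgeR's quasi-likelihood test). No gene of the 4 had groups that did not overlap, against 0.923% of all tested records.

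**Figure D1:**
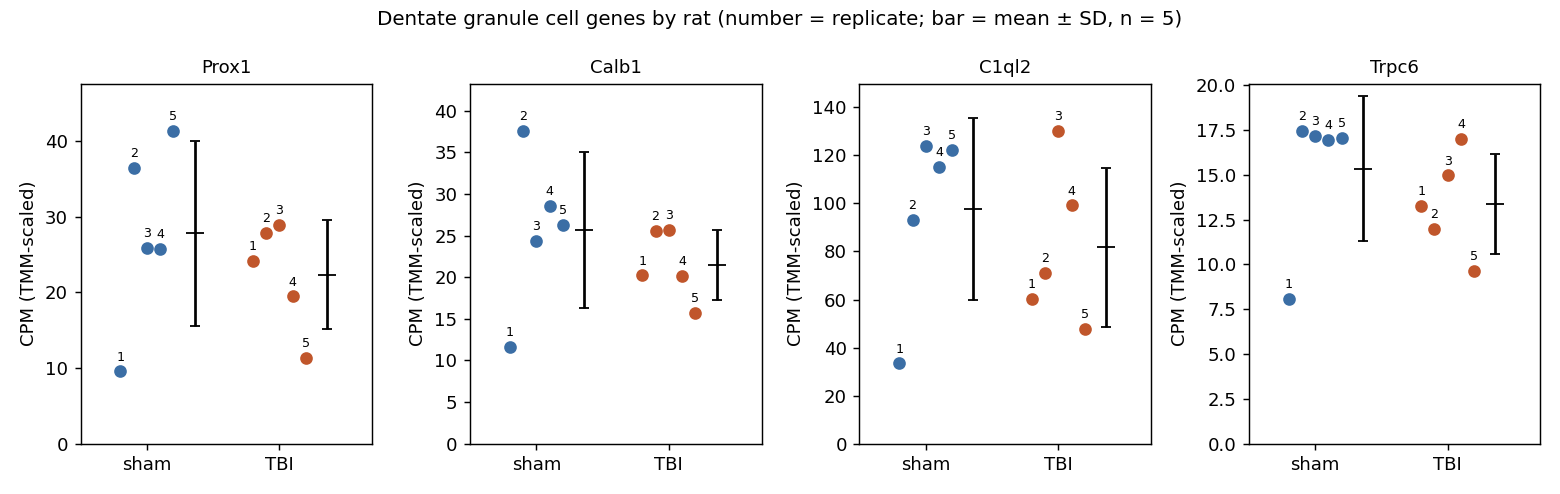
Level of Prox1, Calb1, C1ql2 and Trpc6 in each rat, with TMM-scaled CPM on the vertical axis of each panel and the group on the horizontal axis. Numbers over the points are replicates and black bars are the mean ± SD of 5 rats. Sham 1 is the lowest point of every panel, at 9.55, 11.6, 33.4 and 8.08 CPM, and the groups overlap in all 4.

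Tdo2 encodes tryptophan 2,3-dioxygenase, which opens the kynurenine pathway of tryptophan breakdown. Its record, NM_022403.1, held 6 reads in all. They were 0, 2, 0, 0 and 0 reads in sham rats 1 to 5 and 0, 1, 0, 0 and 3 reads in TBI rats 1 to 5. The record was below the minimum of 44 reads and was not tested. A count of 0 allows up to 3 reads, which came to between 0.0777 and 0.204 CPM per library and covers counting error only. A difference in Tdo2 below this level was not detectable at this depth.

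The low values of the 4 tested genes came together in the same rats. Sham 1 was at 29.6% of the mean of the other 4 sham rats for Prox1, 39.7% for Calb1, 29.4% for C1ql2 and 47.1% for Trpc6. TBI 5 was at 45.3%, 68.7%, 52.8% and 67.6% of the mean of the other TBI rats for the same genes. Over all tested records, sham 1 was the lowest rat in 13.8% and was followed by TBI 5 in 2.37%. These rats were singled out after their values were seen, and the depth of sham 1 outside ribosomal RNA, 22089112 reads, was the highest of the sham rats.

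Across the 10 rats the 6 pairs of genes had Pearson correlations of log2 CPM from 0.79 to 0.93. The closest pair was C1ql2 and Trpc6, at r = 0.93 and rho = 0.67, followed by Prox1 and Calb1 at r = 0.91 and rho = 0.85. Without sham 1 and TBI 5, the rats farthest from the median, these pairs stood at r = 0.72 and r = 0.69 and the other 4 pairs between 0.18 and 0.35. The correlations describe rats that share 1 scaling. The Pearson correlations of the other 4 pairs fell further without these rats than those of the closest pairs. Their rho over all 10 rats was 0.59 to 0.67, near that of C1ql2 and Trpc6.

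No difference between the groups was detected in the proportions among the 4 genes. The log2 ratio of Prox1 to Calb1 within a rat was 0.05 ± 0.362 in sham rats and 0.01 ± 0.288 in TBI rats (SD, n = 5 each). That of C1ql2 to Trpc6 was 2.58 ± 0.352 in sham rats and 2.54 ± 0.363 in TBI rats. Over the 6 pairs the difference between groups ran from -0.06 to 0.03, and the exact two-sided permutation test gave p from 0.817 to 0.960 before adjustment and 0.960 after adjustment over the 6. This comparison was added after the data were seen. The ratio of Prox1 to C1ql2 ranged from -2.35 to -1.31 over the 10 rats, and the test does not show that the ratios are equal.

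**Figure D2:**
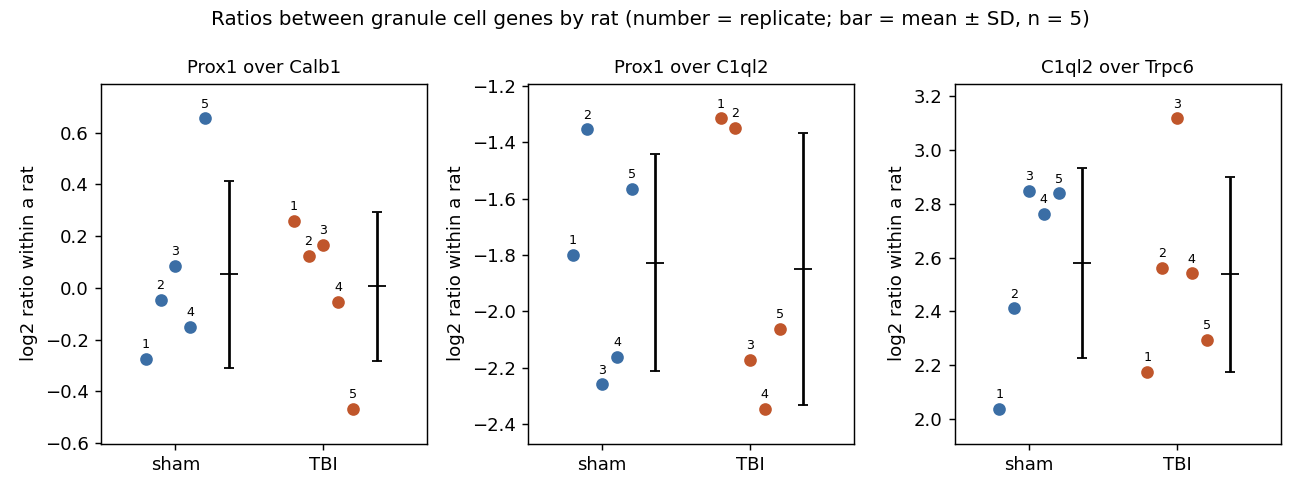
Ratio of 1 granule cell gene to another within each rat, as the log2 ratio of CPM on the vertical axis, for Prox1 over Calb1, Prox1 over C1ql2 and C1ql2 over Trpc6. Points are rats numbered by replicate and bars are mean ± SD of 5 rats. The sham and TBI means lie close together in each panel, at 2.58 and 2.54 for C1ql2 over Trpc6.

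Sham 1 decided whether any of the 4 genes passed an unadjusted p. Without it, the log2 change of Calb1 was -0.45 with a 95% interval from -0.78 to -0.12, and that of Trpc6 was -0.37 with an interval from -0.63 to -0.10. In edgeR's quasi-likelihood test both then fell below an unadjusted p of 0.05 (0.0109 and 0.00993) and neither passed after adjustment over all records (adjusted p = 0.484 for both). Sham 1 was the lowest rat in all 4 genes, so leaving it out raises the sham mean and narrows the sham spread. These unadjusted p-values and intervals are therefore no evidence of a fall after TBI. Prox1 stood at -0.54 and C1ql2 at -0.48 without sham 1, with intervals that held 0. Without TBI 5 the log2 changes of Prox1, Calb1, C1ql2 and Trpc6 were -0.14, -0.16, -0.11 and -0.094.

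The ribosomal RNA share differed between the groups, so its part in these values and that of the injury cannot be told apart. With the share of each library as a covariate, the log2 changes were -0.015 for Prox1, -0.18 for Calb1, 0.073 for C1ql2 and -0.010 for Trpc6. Their standard errors were 0.502, 0.366, 0.506 and 0.255. Without sham rats 4 and 5 the log2 changes were -0.091, -0.18, -0.025 and -0.084, with standard errors of 0.477, 0.355, 0.503 and 0.261. Sham 1, the lowest rat in all 4 genes, had a ribosomal RNA share of 26.2% and weighed more in the sham mean without those rats. The 2 effects cannot be told apart in that setting. Scaling by total counts gave 0.24, 0.25, 0.31 and 0.32, and in that scaling the median of all records was 0.50, so relative to it the 4 genes stood at -0.25, -0.25, -0.19 and -0.18.

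**Figure D3:**
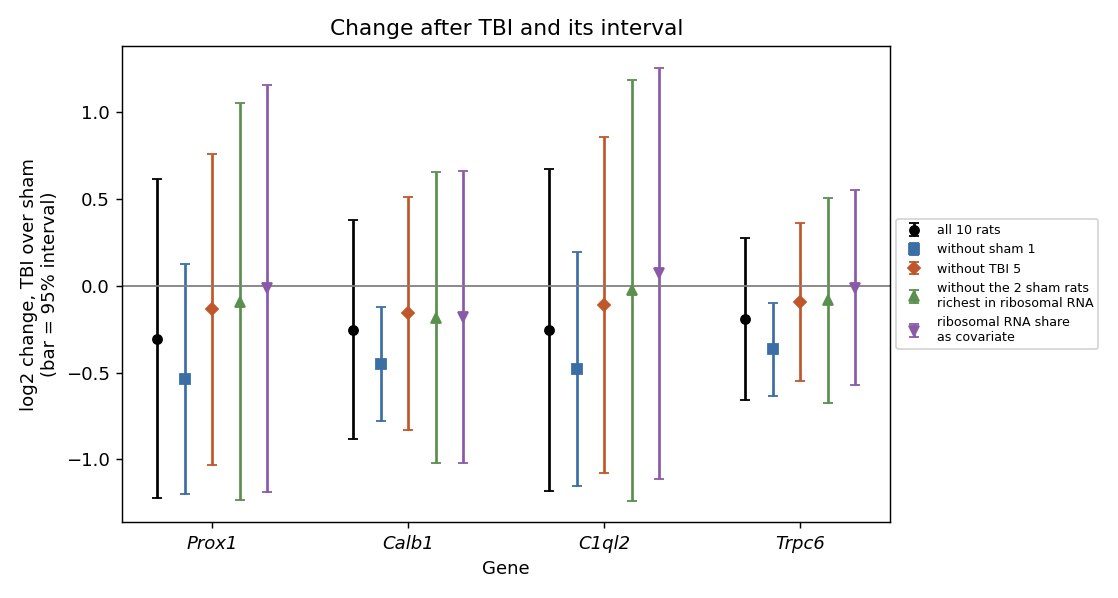
Log2 change of each tested gene, TBI over sham, with its 95% interval, in the fit with all 10 rats, without sham 1, without TBI 5, without sham rats 4 and 5, and with the ribosomal RNA share as a covariate. All intervals hold 0 except those of Calb1 and Trpc6 without sham 1, which end at -0.12 and -0.10. Sham 1 is the lowest rat for every gene shown, so leaving it out lowers each log2 change.

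Other genes of the dentate gyrus were taken from a list of 20, of which 16 were tested. In these, 11 had a log2 change below 0, against 52.2% of all records, and the median was -0.06, against -0.01 over all records. An unadjusted p of 0.05 was passed by 1 of the 16, against 7.89% of all records. This gene was Npy1r, a receptor for neuropeptide Y, with 8.57 ± 1.01 CPM in sham and 6.69 ± 0.867 CPM in TBI rats (log2 change -0.35, adjusted p = 0.487, edgeR's quasi-likelihood test). Slc30a3, the zinc transporter of mossy fibre vesicles, had a log2 change of 0.05, and Sema5a, a semaphorin, one of -0.21. Sham 1 was the lowest rat for 10 of the 16, and TBI 5 was second lowest as well for 4 of them.

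The dentate genes differed in how closely they followed the tested granule cell genes. Grm2, a presynaptic glutamate receptor of mossy fibres, stood at 19.3 CPM in sham 1 and 32.0 CPM in TBI 5, and between 42.8 and 94.1 CPM in the other 8 rats. C1ql3, a relative of C1ql2, stood at 20.9 CPM in sham 1 and at 45.8 to 77.2 CPM in the rats other than sham 1 and TBI 5, and TBI 5, at 49.3 CPM, was within that range. Neurod2, a transcription factor of principal neurons in all hippocampal fields, was not low in sham 1, at 94.0 CPM within a range of 75.9 to 126 CPM in the other 8 rats. The immature granule cell list, with Dcx and Sox11 among its 6 tested genes, had a median log2 change of 0.0089 and no gene past an unadjusted p of 0.05. Sox4 and Tubb3, its most abundant genes, had log2 changes of 0.05 and -0.04.

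**Figure D4:**
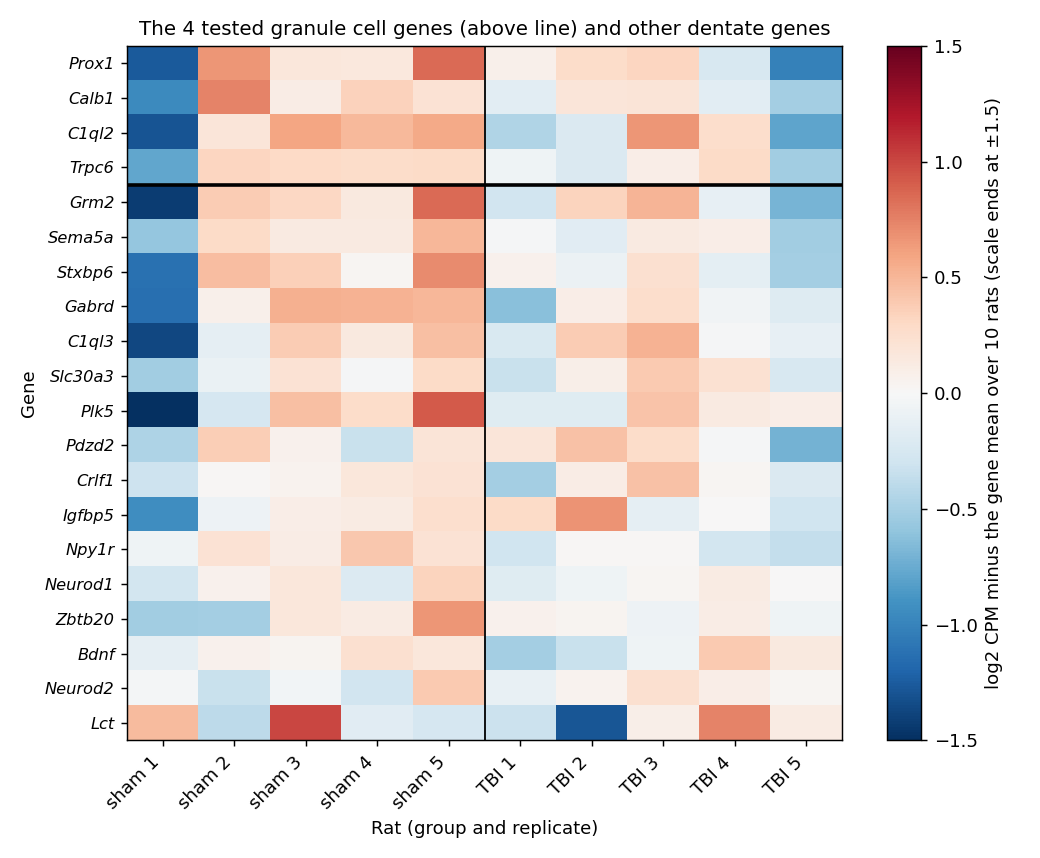
Heat map of log2 CPM in each of 10 rats (columns), less the mean of each gene, for the 4 tested granule cell genes above the black line and the 16 other dentate genes below it, ordered by their correlation with the 4. Blue is below and red above the mean of the gene, on a scale that ends at ±1.5. Sham 1 is blue in all 4 tested genes and the lowest rat in 10 of the 16 others.

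By likeness of pattern, 11277 records with a symbol and a mean of at least 1 CPM were ranked by their correlation over the 10 rats with the mean of the 4 genes. The closest was Perp, a membrane protein of desmosomes, at r = 0.971 and rho = 0.903. It stood at 4.74 CPM in sham 1, 8.47 CPM in TBI 5 and 9.92 to 17.4 CPM in the other 8 rats. Igsf3 and Tiam1 followed, both at r = 0.971, then Slc4a11 at 0.969, Rgs6 at 0.965 and Arg1 at 0.963. Without sham 1 and TBI 5, these 6 had r from 0.796 for Slc4a11 to 0.947 for Perp.

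The partners of each gene were taken from lists of their own. Together with the dentate lists they held 75 tested genes, of which 9 (12%) passed an unadjusted p of 0.05 beside 7.89% of all records, 5 higher and 4 lower in TBI rats, and 0 passed an adjusted p of 0.05. The median log2 change of the 75 was -0.06.

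Of 11 genes that act with Prox1 or on granule cell fate, 2 passed the unadjusted p, both higher in TBI rats. Notch1, the receptor of the Notch pathway, was at 39.6 ± 4.93 CPM in sham and 48.4 ± 7.35 CPM in TBI rats, a log2 change of 0.29. Id4, an inhibitor of basic helix-loop-helix factors, had a log2 change of 0.25. The most abundant, Ctnnb1, which encodes β-catenin, stood at 180 and 178 CPM.

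Of 9 tested calcium-binding and calcium-extruding genes, 1 passed, Ncald, which encodes neurocalcin delta, at 319 ± 30.4 CPM in sham and 283 ± 18.7 CPM in TBI rats (log2 change -0.17). Hpca, the calcium sensor hippocalcin, had a log2 change of 0.11.

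The desmosome list, the surroundings of Dsp, held 8 tested genes and 2 that passed. Jup, which encodes plakoglobin, a desmosomal and adherens junction protein, had a log2 change of 0.19. Vim, the intermediate filament vimentin of astrocytes and other non-neuronal cells, was at 39.3 ± 13.5 CPM in sham and 91.7 ± 43.2 CPM in TBI rats (log2 change 1.21, adjusted p = 0.522, edgeR's quasi-likelihood test). Perp, the gene closest in pattern to the 4, is a member of this list.

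Of 11 C1q-like and mossy fibre synapse genes, 2 passed, both lower in TBI rats. Cbln2, a cerebellin of the C1q family, had a log2 change of -0.43 at 1.82 and 1.36 CPM, and Grik2, a kainate receptor subunit, one of -0.22 at 17.9 and 15.4 CPM. The kainate receptor subunits Grik4 and Grik5 stood at -0.06 and 0.05.

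Of 7 tested kynurenine pathway genes, 1 passed, Aadat, a kynurenine aminotransferase, with a log2 change of 0.34, while Afmid and Kyat1 stood at -0.09 and 0.10. All 9 tested genes of the TRPC family and its signalling had a log2 change below 0, as did 52.2% of all records, with a range from -0.41 to -0.01 and a median of -0.07, and none passed. Fyn and Stim1, the most abundant of these, had log2 changes of -0.03 and -0.11.

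What else the tissue piece held was read from marker lists. The score of a list in a rat is the mean over its genes of log2 CPM, each gene centred on its own mean. The score of the 4 tested granule cell genes ran from -1.07 to 0.48 in sham rats and from -0.71 to 0.32 in TBI rats. The CA3 score was highest in sham 1, at 0.51, where the granule cell score was lowest, and the score of general neuronal markers in sham 1 was 0.19 against -0.04 to 0.02 in the other sham rats. This was not particular to CA3, since the GABAergic score was also highest in sham 1, at 0.39. TBI 4, with the next highest CA3 score, 0.45, had a granule cell score of 0.04. TBI 5 came after it, with a CA3 score of 0.18 and a granule cell score of -0.71, the lowest of the TBI rats. The lowest CA3 score, -0.38 in TBI 1, went with a granule cell score of -0.15. CA3 markers ranged from -0.23 to 0.51 in sham and from -0.38 to 0.45 in TBI rats, and none of the 6 passed an unadjusted p of 0.05. The part of these markers in the low level of the granule cell genes in sham 1 was not tested.

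**Figure D5:**
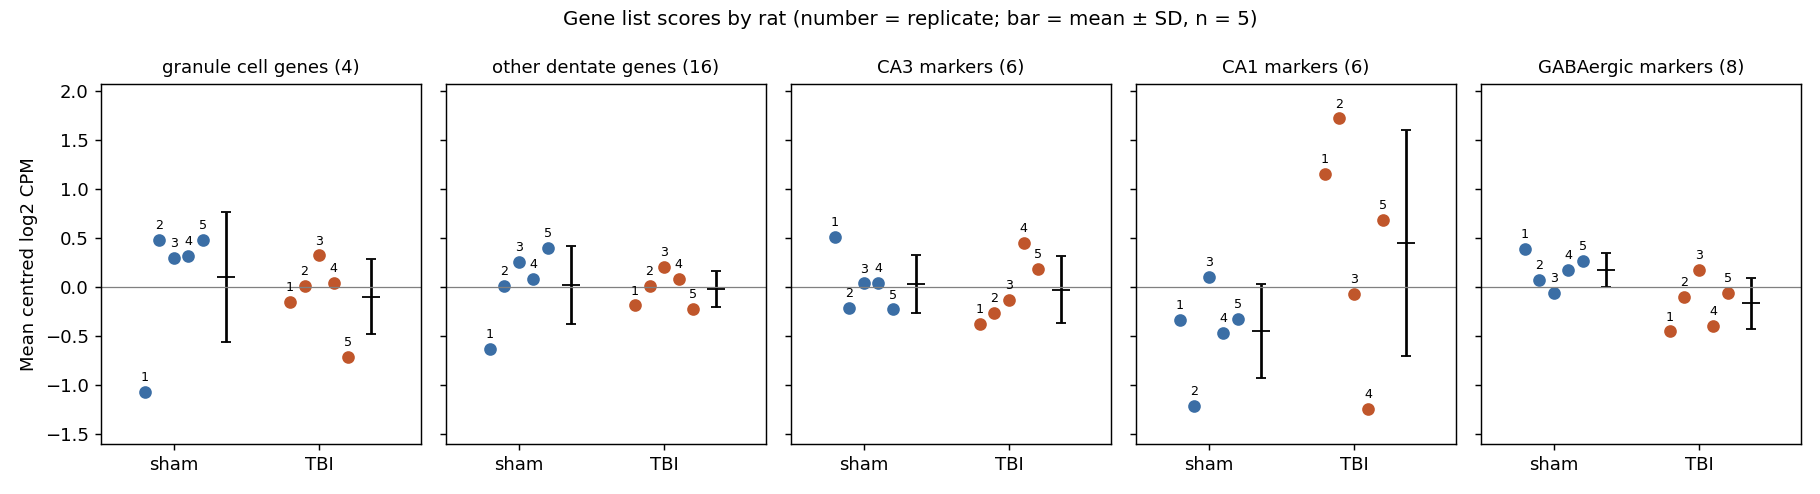
Score of 5 gene lists in each rat, as the mean of log2 CPM of the genes in the list after centring each gene, with groups on the horizontal axis and mean ± SD of 5 rats as bars. Sham 1 is lowest for the granule cell genes, at -1.07, and highest for the CA3 markers, at 0.51, and for the GABAergic markers, at 0.39. The CA1 score spreads from -1.24 to 1.72 in TBI rats.

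Some markers of other cells passed the unadjusted p, which 7.89% of all records did, and none passed the adjusted p. Of 6 CA1 markers, although the piece was to hold CA3 and dentate gyrus, 3 passed, all higher in TBI rats. A log2 change below 0 was found in 0 of these 6, against 52.2% of all records. Wfs1 stood at 37.1 ± 13.3 CPM in sham and 107 ± 83.0 CPM in TBI rats. The CA1 score ran from -1.22 to 0.10 in sham and from -1.24 to 1.72 in TBI rats. Of 8 GABAergic markers 3 passed, all lower in TBI rats, and 8 of the 8 had a log2 change below 0. Gad1 stood at 82.3 ± 9.06 CPM in sham and 59.6 ± 9.49 CPM in TBI rats. The GABAergic score was -0.06 to 0.39 in sham and -0.45 to 0.17 in TBI rats. Of astrocyte, microglial and meningeal markers, 2 of 6, 2 of 6 and 3 of 6 passed, all higher in TBI rats. A log2 change below 0 was found in 1, 0 and 1 of these lists' genes. Gfap, the astrocyte filament, had a log2 change of 0.82, Aldh1l1 0.23, Aif1 0.34 and C1qa 0.31. Col1a1 stood at 0.43, Col1a2 at 0.77 and Igf2 at 0.48. The meningeal marker Lum stood at -0.95 and did not pass. Further CA1 and GABAergic markers past the unadjusted p included Ccn3 at 0.88, Gad2 at -0.46 and Lhx6 at -0.36. In the remaining lists 1 gene each passed. These were Foxj1 of 4 ependymal markers at 0.97, Folr1 of 6 choroid plexus markers at 0.81 beside Prlr at -0.32, and Zic1 of 4 thalamic markers at 0.48 beside Lef1 at -0.17. They further included Tagln of 6 smooth muscle and pericyte markers at 0.44 and Drd2 of 4 mossy cell markers at -0.52 beside Nmb at 0.05. No endothelial, oligodendrocyte, CA2 or general neuronal marker passed, and Mbp and Snap25, abundant genes of these lists, stood at 0.02 and -0.07. The part of these markers in the values of the granule cell genes was not tested.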

How the data were processed

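Poly-A RNA of 10 rats was sequenced as single reads of 36 bases. The submitters' notes name BWA and the rat build rn4. The authors deposited raw counts, one row per RefSeq RNA record and one column per rat, with no normalization and no pooling. Their methods describe counting over Ensembl transcripts, and how this goes with the RefSeq records was not settled here. Strand was not stated to be used in counting, and overlapping transcripts are uncertain. Unmapped reads (median 22.2% of reads per library) and an empty row were left out.

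Symbols came from a RefSeq gene table of assembly GRCr8, used for names only, and 57.7% of tested records had one. Records with at least 44 reads in total (the 30th percentile) were tested, the filter the study describes. Groups follow the labels, which give 5 sham rats, while the study's methods give fewer control rats for this comparison, and this was not reconciled here. TBI and sham rats were compared with edgeR 4.0.16 (quasi-likelihood test, robust, TMM) in R 4.3.3 over all 22431 records with Benjamini-Hochberg adjustment. The smallest adjusted p was 0.477. The study lists Vim, Gfap, Wfs1, Gad1 and Gad2 among the genes altered after TBI, chosen by an unadjusted p in its own comparison. None of them passed an adjusted p here, and each changed in the direction the study gives. Their unadjusted p-values in edgeR's quasi-likelihood test were 0.0127 for Vim, 0.0123 for Gfap and 0.0340 for Wfs1. Those of Gad1 and Gad2 were 0.000282 and 9.02e-05. Log2 CPM used a prior count of 2. Ratios were compared with scipy 1.17.1. Scripts were tested on simulated data.

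Named genes were the 6 members, those of the other lists with an unadjusted p under 0.05 or the 2 highest means, and the 6 of closest pattern. For the cell marker lists, not all genes with the highest means are given, and a few genes of the lists are not reported here. Neurod2, Grm2, C1ql3, Dcx and Sox11 were named after their values were seen. The members and lists were chosen with earlier results of these data known. Alternatives were other scalings, filters, tests (DESeq2 1.42.0, limma 3.58.1), a ribosomal RNA covariate and leaving out rats. Replicate numbers do not pair rats.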

Additional observations from a re-analysis of the deposited data

Results flagged for a closer look

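In a group of 5 rats, 1 rat was singled out where its gap to the nearest other rat exceeded 0.71 of the range of the group (Dixon's test). This held in 8 of 72 groups, where chance gives about 3.6 if the groups were separate. They share rats and genes, so the excess over 3.6 cannot be weighed. Trpc6 stood at 8.08 CPM in sham 1 and at 16.9 to 17.5 CPM in the other sham rats. The score of the 4 granule cell genes was -1.07 in sham 1 and 0.29 to 0.48 in the others. The general neuronal score was 0.19 in sham 1.

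The other 5 were scores of other cell types. CA2 markers stood at -0.37 in sham 2 and at -1.25 in TBI 4, astrocyte markers at 0.10 in sham 3, thalamic markers at 0.37 in TBI 1 and oligodendrocyte markers at -0.31 in TBI 2.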

How the results depend on the processing

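With total count scaling the log2 changes turned to 0.24 (Prox1), 0.25 (Calb1), 0.31 (C1ql2) and 0.32 (Trpc6), the mean score of the 4 genes went from -0.20 to 0.41, and 1 listed gene passed an adjusted p of 0.05. That scaling moved the median of all records to 0.50. With the ribosomal RNA covariate C1ql2 was at 0.073, and the cause was not tested. Under the other alternatives the 4 genes kept a log2 change below 0 and none passed an adjusted p of 0.05.

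Leaving out each rat in turn gave -0.54 to -0.12 for Prox1, -0.45 to -0.064 for Calb1, -0.49 to -0.11 for C1ql2 and -0.37 to -0.094 for Trpc6. The score difference ran from -0.49 (without sham 1) to -0.045 (without TBI 5), an alternative added after the data were seen. The tested granule cell genes past an unadjusted p of 0.05 numbered 0 to 2, with 2 (Calb1 and Trpc6) only without sham 1, the lowest rat in both. The listed partner and dentate genes past it numbered 9 with all rats, 3 without TBI 2, 5 without sham 2, sham 4 or TBI 1, and at most 13, without TBI 3. No paired analysis was possible because the labels give the rats no shared replicate numbers.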
